A study of Mus musculus with 8 samples.

Results

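The genes described here are 10 genes of translation control by the mTORC1 kinase complex and the 4E-BP repressors, chosen by symbol from a table of 53465 genes. They are Eif4ebp1, Eif4ebp2, Eif4e, Mtor, Rptor, Rps6kb1, Rheb, Ddit4, Sesn1 and Sesn2, and the question put to them was whether a higher level of Eif4ebp1 in the mutant libraries stood alone among them. Eif4ebp1 entered the list because of that difference, so its own difference is given as a description and supports nothing. All 10 passed the filter on low counts. RNA-seq was performed on heart ventricles of mouse embryos at embryonic day 15.5, with 4 libraries labelled wild type (WT) and 4 labelled Flox, of genotype Nrg-1flox;Cdh5-CreERT2, each made from 1 ventricle according to the design text, a point on which the transcripts of the sex chromosomes bear below. In this line a tamoxifen-inducible Cre recombinase under the control of the endothelial Cdh5 promoter is meant to delete floxed sequence of Nrg1, which encodes the growth factor neuregulin-1. Other cells of the ventricle are not meant to recombine. The time of tamoxifen treatment, and whether the WT embryos carried Cre or floxed alleles, are not given in the sources used here. Nor is it stated whether the ventricles came from separate litters, so p-values measure the spread between these libraries.

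mTORC1 is a kinase complex built on the mTOR kinase and its substrate-recruiting subunit Raptor (Rptor). When growth factors and amino acids are plentiful, the small GTPase Rheb switches it on at the lysosome, and the complex phosphorylates S6 kinase 1 (Rps6kb1) and the 4E-BP proteins. Unphosphorylated 4E-BPs hold the cap-binding protein eIF4E and keep it from starting translation. Ddit4 (REDD1) and the sestrins Sesn1 and Sesn2 restrain mTORC1 under stress or amino acid shortage. These steps act on proteins, and RNA levels do not report phosphorylation or translation.

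The coding stretches that tie these genes into a single circuit are shown to let the paralogues be compared (GENCODE M21, GRCm38). In each, capitals mark the codons of the motif. The first pair, from the end of exon 1 into exon 2, encodes the segment with which a 4E-BP holds eIF4E, and the coordinates include the intron between.
Eif4ebp1, chr8:27260541-27273381, plus strand: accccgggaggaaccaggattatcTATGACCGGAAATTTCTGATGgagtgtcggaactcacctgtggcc
Eif4ebp2, chr10:61435045-61452411, minus strand: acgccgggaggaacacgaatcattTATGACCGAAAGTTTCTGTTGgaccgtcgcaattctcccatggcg
The next set encodes the TOR signalling motif, with which Raptor recruits these substrates. In both 4E-BP genes it is directly followed by the stop codon, and in Rps6kb1 it lies in exon 1 of 15. The stretches of both 4E-BP genes run from exon 2 into exon 3, and their coordinates include the intron between.
Eif4ebp1, chr8:27273493-27275111, plus strand: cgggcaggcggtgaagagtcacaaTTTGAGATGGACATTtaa
Eif4ebp2, chr10:61433797-61434927, minus strand: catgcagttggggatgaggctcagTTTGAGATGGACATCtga
Rps6kb1, chr11:86544587-86544649, minus strand: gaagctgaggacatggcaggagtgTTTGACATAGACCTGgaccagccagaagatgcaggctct
Between Eif4ebp1 and Eif4ebp2, 18 of the 21 bases of the eIF4E-binding codons and 14 of the 15 bases of the TOR signalling codons were identical. Over the whole coding sequences (354 and 363 bases) the identity was 68.2% of the aligned bases. The longest run shared by any of their annotated transcripts was 14 bases, far shorter than the 60-base reads, so reads of the paralogues can be told apart.

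The targeted gene was examined first. Nrg1 (chromosome 8, 31814551 to 32884029, minus strand) was at 5.46, 4.64, 4.08 and 5.31 CPM (counts relative to the TMM-scaled library size) in the 4 WT libraries, in order of their numbers, compared with 6.80, 6.35, 6.14 and 5.36 CPM in the 4 labelled Flox. The targeted transcript therefore showed no loss under the Flox label, with a log2 fold change of 0.34 (SE 0.12, 95% confidence interval 0.08 to 0.60, edgeR FDR 0.311). A gene-level count includes exons outside the floxed sequence and every cell type. Because the target does not bear out the label, each direction below is that of the libraries labelled Flox. Total expected counts ranged from 16761763 to 24144272 per library. In 7 of the 8 libraries Xist and Y-linked transcripts were both above 1 CPM, and the sum of Ddx3y, Uty, Eif2s3y and Kdm5d ranged from 69.3 to 171 CPM in WT and from 42.9 to 120 CPM in Flox libraries. Material of a single embryo would not hold both kinds of transcript at such levels, so these values go against 1 ventricle per library in those 7. The exception was WT library 4, with 0.19 CPM of Xist and 171 CPM of the Y-linked genes. Xist ranged from 0.19 to 206 CPM in WT and from 103 to 327 CPM in Flox libraries. How many embryos a library holds is not known here, and n = 4 counts libraries. The 6 ventricular cardiomyocyte markers summed to between 40744 and 45530 CPM in every library. The summed level of 5 endothelial markers was 870 to 899 CPM in WT and 815 to 866 CPM in Flox libraries, and that of 4 smooth muscle markers was 1558 to 1654 and 1662 to 1759 CPM. Neither of these sums overlapped between the groups, although none of their genes passed the test. The summed markers of atrial cells, fibroblasts, red cells and macrophages overlapped between the groups, and those of hepatocytes were at most 1.96 CPM.

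Eif4ebp1, which encodes the repressor 4E-BP1, measured 123, 123, 118 and 124 CPM across the WT libraries. Flox libraries held 141, 145, 144 and 140 CPM. The groups did not overlap, and the gap between the highest WT and the lowest Flox library was wider than the range within either group. The means were 122 ± 2.62 and 142 ± 2.38 CPM (SD, n = 4), which put the Flox mean 16.7% above WT. On the log2 scale the difference was 0.22 ± 0.03 (SE), its 95% confidence interval running from 0.16 to 0.29, with an FDR of 0.0109 in edgeR's quasi-likelihood test over 15388 genes. Of these genes, 0.312% were called higher and 3.05% were higher without overlap, but Eif4ebp1 was picked for its place among them and nothing is read from that. When the Y-linked level entered the model as a covariate, the estimate was 0.21 and the edgeR FDR 0.0678, so the call was lost there. The parts of the Y-linked level and of the endothelial and smooth muscle markers in this difference were not tested beyond that fit. In bulk tissue, fewer cells of a type and less RNA per cell cannot be told apart.

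**Figure D1:**
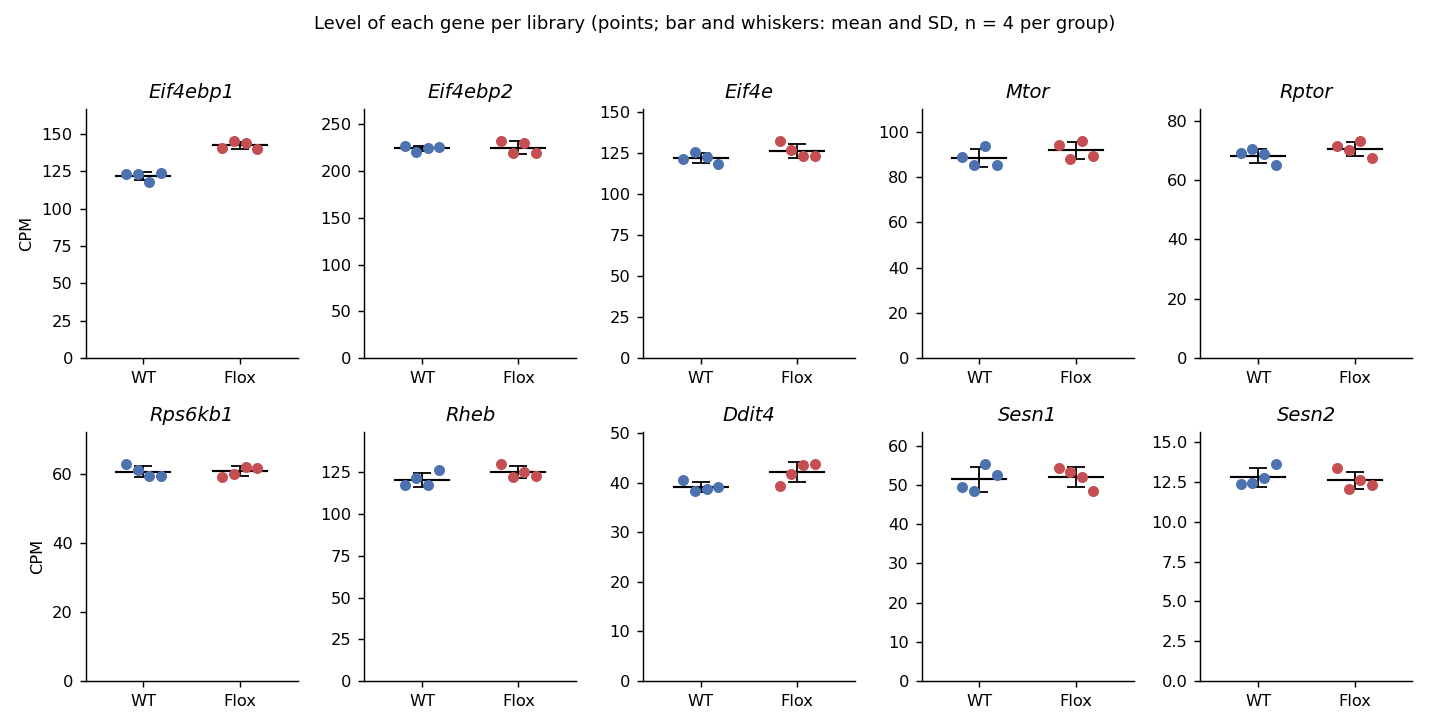
Level of each of the 10 genes in CPM (vertical axis, from 0) in 4 WT (blue) and 4 Flox (red) libraries, with black bars for the mean and whiskers for the SD. Eif4ebp1 is the only panel in which the groups do not overlap, at 118 to 124 CPM in WT and 140 to 145 CPM in Flox libraries.

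The paralogue Eif4ebp2, which encodes 4E-BP2, was at 227, 221, 224 and 226 CPM in WT, compared with 232, 219, 230 and 220 CPM in Flox libraries. The WT range lay within the Flox range, and the log2 fold change was 0.01 (95% confidence interval -0.06 to 0.07, FDR 0.976). The interval ends well below the estimate of Eif4ebp1, but that gene was chosen for its difference, so this is a description only. The ratio of Eif4ebp1 to Eif4ebp2 CPM within a library was 0.542, 0.558, 0.526 and 0.547 in WT and 0.606, 0.661, 0.624 and 0.637 in Flox libraries. Eif4ebp3, the remaining gene of the family and named here outside the rule for named genes, was barely present, at 1.26 ± 0.388 CPM in WT and 1.25 ± 0.586 CPM in Flox libraries (SD, n = 4).

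Eif4e, whose product binds the mRNA cap and is the target of both repressors, was at 122, 126, 123 and 119 CPM in WT, compared with 132, 127, 123 and 123 CPM in Flox libraries. The groups overlapped, with a log2 fold change of 0.05 (95% confidence interval -0.02 to 0.12, FDR 0.656). Within a library the ratio of Eif4ebp1 to Eif4e CPM was 1.01, 0.979, 0.964 and 1.04 in WT and 1.06, 1.14, 1.17 and 1.14 in Flox libraries. All 4 Flox ratios therefore lay above the WT ratios, although the numerator was chosen for its difference and no test was made.

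Mtor, the kinase itself, was at 88.8, 85.5, 93.6 and 85.1 CPM in WT, compared with 94.1, 87.9, 95.7 and 89.1 CPM in Flox libraries. Its subunit gene Rptor was at 69.0, 70.3, 68.6 and 64.9 CPM in WT, compared with 71.4, 70.2, 73.0 and 67.3 CPM in Flox libraries. Both overlapped between the groups, with log2 fold changes of 0.06 for Mtor (95% confidence interval -0.03 to 0.14, FDR 0.677) and 0.05 for Rptor (-0.03 to 0.13, FDR 0.690). For Rps6kb1, which encodes the kinase that phosphorylates ribosomal protein S6, WT libraries held 62.8, 61.1, 59.3 and 59.3 CPM and Flox libraries 59.2, 60.1, 62.1 and 61.7 CPM. Its log2 fold change was 0.003 (95% confidence interval -0.07 to 0.07, FDR 0.991). The libraries of each group lay on both sides of 60 CPM, with no order between the groups.

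Rheb, the activator, was at 117, 121, 118 and 126 CPM in WT, compared with 130, 122, 125 and 123 CPM in Flox libraries, a log2 fold change of 0.05 (95% confidence interval -0.02 to 0.13, FDR 0.651). Of the inhibitors, Ddit4 came closest to a difference. It was at 40.5, 38.3, 38.6 and 39.1 CPM in WT, compared with 39.4, 41.8, 43.5 and 43.7 CPM in Flox libraries, with 3 Flox libraries above every WT library and Flox library 1 inside the WT range. The log2 fold change was 0.11 (95% confidence interval 0.02 to 0.20), with an unadjusted p of 0.0255 and an edgeR FDR of 0.390, which did not pass. Sesn1 was at 49.4, 48.4, 55.4 and 52.7 CPM in WT, compared with 54.3, 53.3, 52.0 and 48.6 CPM in Flox libraries (log2 fold change 0.02, 95% confidence interval -0.09 to 0.12, FDR 0.946). Sesn2 was the scarcest of the 10, at 12.3, 12.4, 12.8 and 13.6 CPM in WT, compared with 13.3, 12.1, 12.6 and 12.3 CPM in Flox libraries, from 209 to 310 expected counts. Its log2 fold change was -0.02 (95% confidence interval -0.17 to 0.12, FDR 0.951), the widest interval of the 10.

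Counted together, 1 of the 10 genes passed FDR below 0.05, against 0.526% of all tested genes, and that gene was the one that prompted the list. Among the other 9, edgeR, DESeq2 and limma voom each called 0, and 1 (Ddit4) had an unadjusted p below 0.05 in edgeR, where 10.5% of all tested genes did. Libraries separated without overlap for 0 of the 9, against 6.05% of all tested genes. The highest upper confidence bound of the 9 was 0.195, that of Ddit4. The upper bounds of 8 of the 9 lay below the lower bound of Eif4ebp1, the exception being Ddit4, and all 9 lay below its estimate of 0.22. Because Eif4ebp1 was chosen for its difference, its own estimate and bound may be too high. The comparison with them is therefore a description and supports nothing. Their Flox means differed from WT by -1.53% to 7.59%. The median log2 fold change of the 9 was 0.05, and that of all tested genes was -0.0012. The median of the 9 was 0.018 once the Y-linked level was in the model, 0.029 without Flox library 1, 0.030 without WT library 4 and 0.032 without Flox library 3. In 8 of the 9 the estimate was above 0, against 7608 of all 15388 tested genes, and for 8 the interval included 0. Several of these signs were not stable. Over 18 alternatives, Rps6kb1 was above 0 in 10, Eif4ebp2 and Sesn1 in 15 each and Rptor in 17. The estimate of Rps6kb1 fell below 0 with upper quartile scaling, among others.

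**Figure D2:**
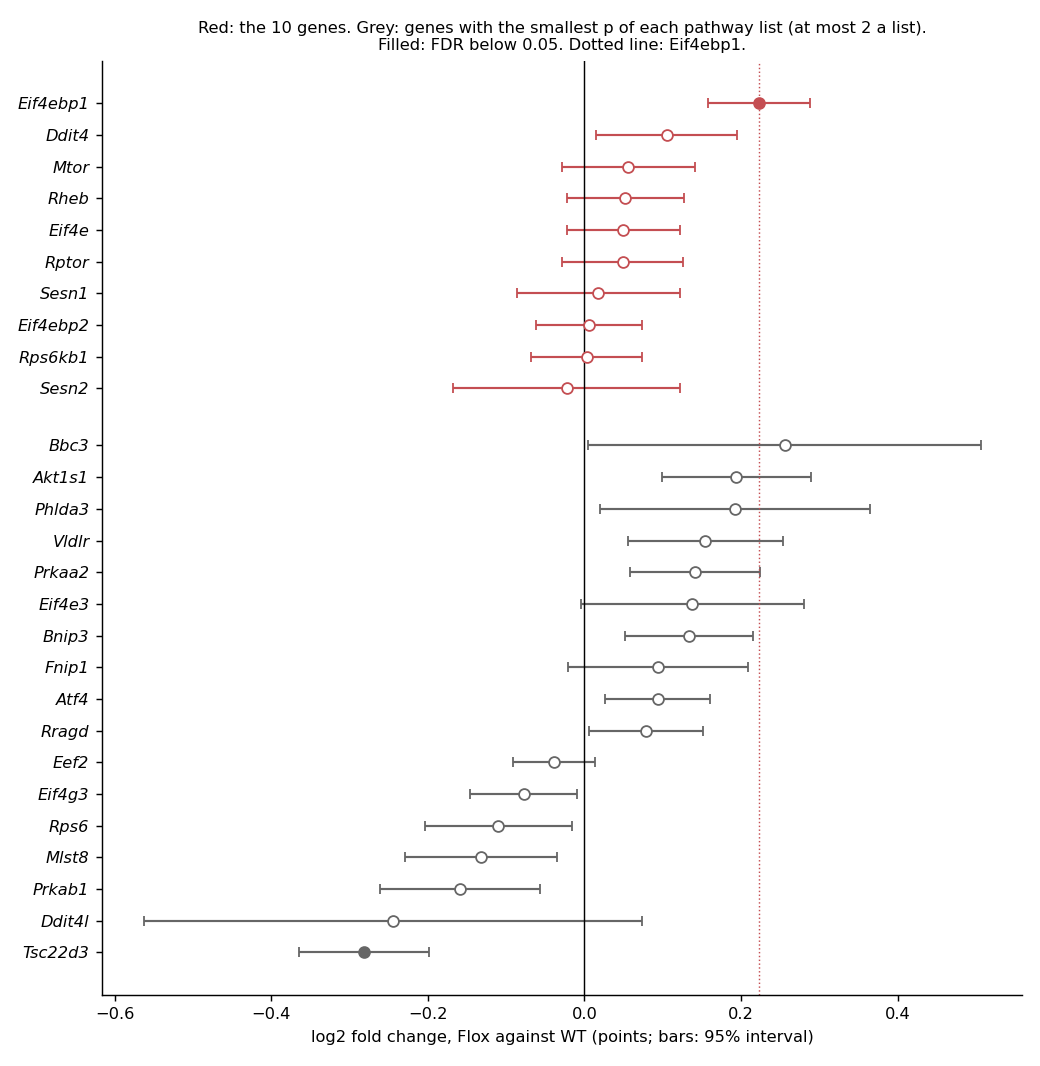
Log2 fold change of Flox against WT libraries with 95% confidence intervals (horizontal axis) for the 10 genes (red) and for the genes with the smallest p in each pathway list, at most 2 a list (grey), where filled points have an FDR below 0.05. Eif4ebp1 at 0.22 and Tsc22d3 at -0.28 are filled, and the intervals of the other 9 red genes end left of the dotted line at the Eif4ebp1 estimate. Eif4ebp1 was chosen for its difference, so the line is no independent measure.

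Levels of different genes were compared after division by exonic length, as CPM per kb of exonic sequence in WT libraries. The 4E-BP genes were the most abundant, Eif4ebp1 at 55.5 ± 1.2 and Eif4ebp2 at 38.8 ± 0.434 CPM per kb (SD, n = 4). Ddit4 (22.3), Eif4e (20.3), Rheb (15.6) and Sesn1 (12.9) followed, and then Mtor (8.73), Rps6kb1 (7.0) and Rptor (5.06), with Sesn2 last at 3.68 CPM per kb. The WT ranges of neighbours in this order did not overlap, but the order of the middle genes rested on the length used. Divided by the longest annotated transcript instead, Rheb was at 29.8 CPM per kb, above Eif4e (24.5) and Ddit4 (22.3), and Mtor and Rptor were both at 10.3 and Rps6kb1 at 10.96. Eif4ebp1, Eif4ebp2, Eif4e, Sesn1 and Sesn2 kept their places by either length. By exonic length the level of Eif4ebp1 was 2.73 times that of Eif4e per kb in WT libraries.

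The counting of Eif4ebp1 was examined because its expected counts were not whole in 87.5% of libraries. Of 2097 distinct 60-base windows in its transcripts, 39 (1.86%) occurred in transcripts of 67 other genes, each sharing 1 to 19 of them. Eif4e shared 4.70% of its windows, nearly all with Gm7327, Rps6kb1 shared 1.07% with Rnft1 on the opposite strand, and Rptor shared 0.209% with the antisense gene Rptoros. The other 6 genes shared none, although the counts of Rheb were not whole in any library. The values of Eif4ebp1, Rheb and Rps6kb1 (not whole in 75% of libraries) are thus less certain. Whether counting used the strand is not given in the sources used here. By length and GC content Eif4ebp1 was ordinary among tested genes (2196 exonic bases, 19.0th percentile, and 48.2% GC, 43.1st percentile), and with both trends removed per library its log2 fold change was 0.23 (FDR 0.00665).

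Eif4ebp1 and Nrg1 lie on the same chromosome. Eif4ebp1 (chromosome 8, 27260329 to 27276674, plus strand) ends 4.54 Mb before Nrg1 begins. Among 104 tested genes within 10 Mb of Nrg1, Eif4ebp1 alone was called (0.962%, against 0.526% of all tested genes). An unadjusted p below 0.05 was found for 11 (10.6%, against 10.5%). Because Eif4ebp1 was chosen for its difference, nothing is read from the share called. It also counts among these 11, and below among the 7 without overlap and the 4 called by DESeq2. The median log2 fold change of the 104 was -0.0047. The groups did not overlap in 7 (6.73%, against 6.05%), and Flox was lower in 6 of these (5.77% of the 104, against 3% of all tested genes). The 8 other tested genes within 1 Mb of Eif4ebp1 had log2 fold changes between -0.07 and 0.12, with FDR of at least 0.899. DESeq2 called 4 genes of the 104 (3.85%, against 1.29% of all tested genes by that tool), namely Eif4ebp1, Ank1, Ppp1r3b and Pdgfrl. In edgeR the last 3 had FDR of 0.0892, 0.138 and 0.135, all with lower Flox means.

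**Figure D3:**
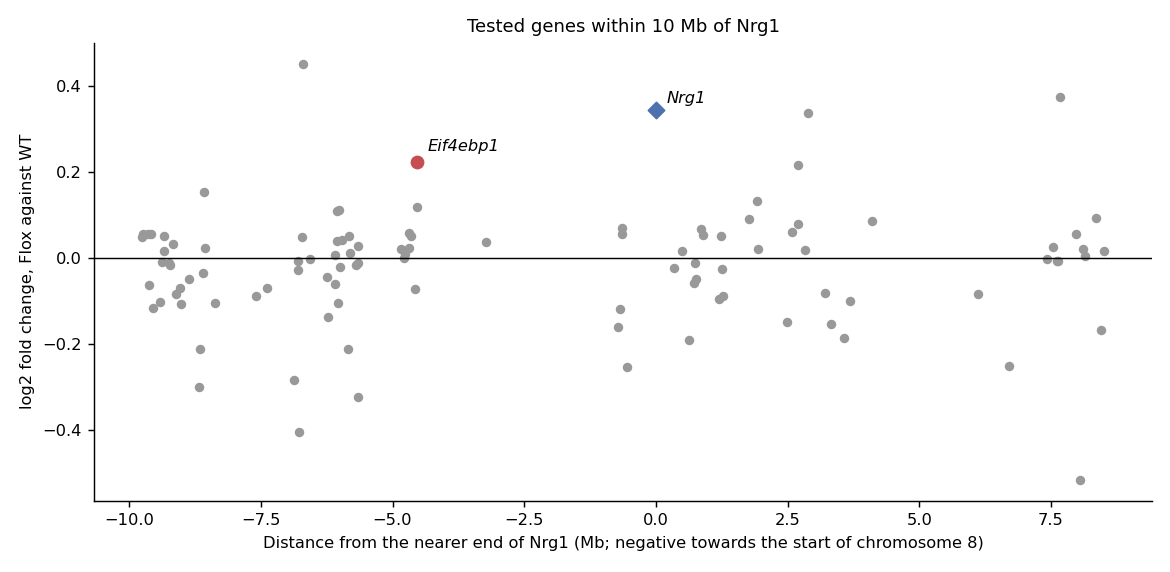
Log2 fold change of Flox against WT libraries (vertical axis) for the 104 tested genes within 10 Mb of Nrg1 by their distance in Mb (horizontal axis), with Eif4ebp1 in red and Nrg1 as a blue diamond. Eif4ebp1 stands 4.54 Mb from Nrg1. The 8 other tested genes within 1 Mb of it lie between -0.07 and 0.12, and their intervals are not drawn.

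To place the 10 genes in their pathway, 145 other genes in 9 lists were followed, of which 142 were tested. The lists were drawn up with earlier results of these data known. In edgeR 0 were called higher and 1 was called lower, Tsc22d3. That is 0.704% of the 142, against 0.214% of all tested genes called lower and 0.526% called in either direction. With 1 gene, in lists drawn up in that way, nothing is read from this share. The groups did not overlap in 7 (4.93%, against 6.05% of all), and 16 had an unadjusted p below 0.05 (11.3%, against 10.5%). The last 2 shares were near those of all genes. Single lists, of 7 to 31 tested genes, ran from 0% to 33.3% for the unadjusted p and from 0% to 22.2% without overlap. DESeq2 called 4 of the 142 (2.82%, against 1.29% of all tested genes by that tool), which were Akt1s1, Prkaa2, Bnip3 and Tsc22d3. The single gene that limma voom called was Tsc22d3 (0.704%, against 0.37%). In the lists that follow, passing refers to edgeR.

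Of the 10 other subunits and assembly factors of mTORC1 and mTORC2, 0 passed in edgeR. An unadjusted p below 0.05 was found for 3 (30%, against 10.5% of all tested genes), and the groups did not overlap in 2 (20%, against 6.05%). Akt1s1, which encodes PRAS40, a Raptor-bound inhibitor of mTORC1 that is itself a substrate, was at 69.6, 63.7, 61.6 and 71.1 CPM in WT, compared with 76.3, 77.0, 76.4 and 74.3 CPM in Flox libraries. Its groups did not overlap, and its difference on the log2 scale was 0.19 ± 0.04 (SE), with a 95% confidence interval of 0.10 to 0.29 and an FDR of 0.0744, the smallest p among the higher genes of all the lists. Mlst8, a subunit of both complexes, lay the other way, with 25.5 ± 0.246 CPM in WT and 23.3 ± 0.878 CPM in Flox libraries (log2 fold change -0.13, FDR 0.297). Among the 15 genes of the cap-binding complex, its kinases and repressors, 0 passed and the median log2 fold change was 0.01. An unadjusted p below 0.05 was found for 1 (6.67%, against 10.5%), Eif4g3 (-0.08, FDR 0.405), and 0 were without overlap (against 6.05%). The cap-binding relative Eif4e3 was at 0.14 (FDR 0.493). In the S6 kinase branch 0 of 7 passed, 1 had an unadjusted p below 0.05 (14.3%, against 10.5%) and 0 were without overlap (against 6.05%). Rps6, the substrate for which the kinase is named, was at -0.11 (FDR 0.390), and Eef2, the elongation factor, was at -0.04 (FDR 0.622).

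Upstream of the complex, 0 of 12 genes of PI3K, AKT and TSC input passed. Of these, 0 had an unadjusted p below 0.05 (against 10.5% of all tested genes) and 0 were without overlap (against 6.05%). Ddit4l, a relative of Ddit4, had the smallest p (-0.24, FDR 0.610). Amino acid sensing at the lysosome was represented by 27 genes, of which 0 passed, and the median log2 fold change was -0.03. An unadjusted p below 0.05 was found for 1 (3.70%, against 10.5%), and 0 were without overlap (against 6.05%). Rragd, a Rag GTPase, was at 0.08 (FDR 0.436), and Fnip1, a partner of folliculin, at 0.09 (FDR 0.585). Of 9 genes of AMPK and its activator LKB1, an energy-sensing kinase system that opposes mTORC1, 0 passed in edgeR. An unadjusted p below 0.05 was found for 3, in opposite directions (33.3%, against 10.5% of all tested genes). The groups did not overlap in 2, with Flox higher in 1 and lower in 1 (22.2%, against 6.05%). The catalytic subunit gene Prkaa2 was at 0.14 (edgeR FDR 0.148, DESeq2 FDR 0.0192) and the regulatory subunit gene Prkab1 at -0.16 (FDR 0.200).

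Eif4ebp1, Ddit4 and Sesn2 are known targets of ATF4, the transcription factor of the integrated stress response. Of 31 tested genes of that response 0 passed, and the median log2 fold change was -0.01. An unadjusted p below 0.05 was found for 2 (6.45%, against 10.5% of all tested genes). The groups did not overlap in 1 (3.23%, against 6.05%). Atf4 itself was at 96.2, 88.9, 93.9 and 91.3 CPM in WT, compared with 98.2, 98.5, 98.2 and 100.2 CPM in Flox libraries, without overlap, and with a log2 fold change of 0.09 it missed the threshold (FDR 0.278). Vldlr was at 0.15 (FDR 0.201). Chac1, Slc7a3 and Fgf21 did not pass the filter on low counts. Sesn1 and Sesn2 are also known targets of p53, and of 16 p53 target genes 0 passed. An unadjusted p below 0.05 was found for 2 (12.5%, against 10.5%), and 0 were without overlap (against 6.05%). Phlda3 was at 0.19 (FDR 0.416) and Bbc3 at 0.26 (FDR 0.465). Ddit4 responds to hypoxia and to glucocorticoids. Of the 15 genes of those responses, 3 had an unadjusted p below 0.05 (20%, against 10.5% of all tested genes). The groups did not overlap in 2 (13.3%, against 6.05%). Among the 15, Tsc22d3, a glucocorticoid-induced gene, fell from 118 ± 5.21 to 96.9 ± 3.47 CPM (SD, n = 4, log2 fold change -0.28, FDR 0.0111), whereas Ddit4 was at 0.11. The call of Tsc22d3 was lost when the Y-linked level was in the model (FDR 0.075) and without Flox library 3 (FDR 0.051). The hypoxia-induced gene Bnip3 was at 0.13 (FDR 0.174).

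The 5 tested genes whose levels followed Eif4ebp1 most closely over the 8 libraries, by Pearson's r of log2 CPM, were Mrpl52 (0.98), Eif5 (0.97), BC003965 (0.97), Nkx2-5 (0.97) and Gcnt1 (0.97). The 8 points share their libraries and the difference between the groups, so these are measures of likeness without a test. Genes picked for likeness to a gene chosen for its difference will tend to differ between the groups too. Their fold changes, FDRs and counts of alternatives passed are therefore descriptions and support nothing. Mrpl52, a mitochondrial ribosomal protein gene, was at 0.18 on the log2 scale (FDR 0.0635), and Eif5, which encodes an initiation factor that acts after eIF4E, was at 0.08 (FDR 0.304). The cardiac transcription factor gene Nkx2-5 was at 0.21 (FDR 0.0194), and at 0.11 (FDR 0.12) once GC and length trends were removed. BC003965 (0.22, FDR 0.0454) and Gcnt1 (0.28, FDR 0.0338) completed the set, but they passed in only 6 and 8 of 18 alternatives, and BC003965 in neither DESeq2 (FDR 0.0683) nor limma voom (FDR 0.0541). None of the other 9 members was among them, which says little because only 5 of all tested genes were taken. Their r with Eif4ebp1 is given with its percentile among tested genes. It was 0.75 for Ddit4 (96.6), 0.58 for Rheb (90.3), 0.52 for Eif4e (87.0), 0.49 for Rptor (85.6) and 0.34 for Mtor (76.7). For the rest it was 0.11 for Rps6kb1 (59.5), 0.07 for Eif4ebp2 (56.6), 0.05 for Sesn1 (55.1) and -0.22 for Sesn2 (33.3).

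**Figure D4:**
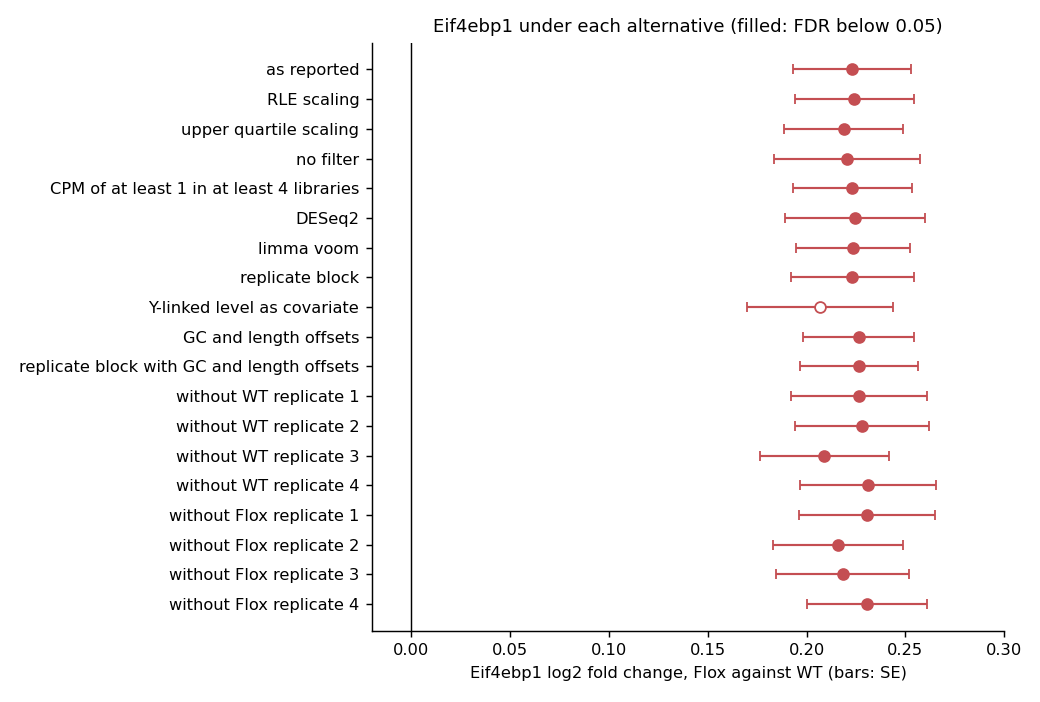
Log2 fold change of Eif4ebp1 (horizontal axis, bars for the SE) in the fit as reported and under each of 18 alternatives, where filled points have an FDR below 0.05. The estimates lie between 0.21 and 0.23, and only the fit that includes the Y-linked level is unfilled.

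Across the 18 alternatives Eif4ebp1 was higher in Flox libraries each time, by 0.21 to 0.23 on the log2 scale, and passed in 17, with FDR from 2.96e-07 in DESeq2 to 0.0678 with the Y-linked covariate. None of the other 9 members passed in any alternative.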

How the data were processed

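RNA-seq libraries of 8 mouse ventricle samples were compared. Directional libraries of polyadenylated RNA gave 60-base single reads, per the labels. The authors deposited expected counts per gene, which are estimates that divide a read matching several genes among them. The submitters' processing notes name cutadapt and RSEM 1.3.1 with build GRCm38, and the table's name gives Ensembl release 91. Of all values, 18.1% were not whole. Counts were rounded, filtered with filterByExpr (15388 genes) and scaled with TMM. Groups were compared with edgeR 4.0.16 in R 4.3.3 (glmQLFit and glmQLFTest, two-sided, group as the only term, Benjamini-Hochberg FDR over all tested genes, threshold 0.05). SEs came from the F statistic and intervals are at 95%. Depth, 16761763 to 24144272 expected counts, left every one of the 10 genes above 200 counts.

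Symbols, positions and sequences came from GENCODE M21, which matched 53360 identifiers. The members and lists were chosen with earlier results of these data known. Named were the 10 genes, Nrg1, in each list the genes called and the 2 with the smallest p, the 5 genes most like Eif4ebp1, and genes called within 10 Mb of Nrg1. The values of 1 gene that this rule names are not reported here. In a simulation of this comparison with 15388 genes and 200 changed, edgeR recovered 96 of 100 genes changed by 1 on the log2 scale and 84 of 100 changed by 0.5, and 13 of 193 calls were false. Changes as small as those of the 10 genes, at most 0.22, were not simulated. These rates therefore do not show how often such changes would be called. Alternatives were RLE and upper quartile scaling, no filter, a minimum of 1 CPM in 4 or more libraries, DESeq2 1.42.0, limma 3.58.1 voom, each library left out, the replicate number as a block, the Y-linked level as a covariate, and offsets for GC content and length (lowess span 0.3) with and without the block. Plots used matplotlib 3.10.9 (Python 3.11.15).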

Additional observations from a re-analysis of the deposited data

Results flagged for a closer look

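The 4 values of each group were screened for a value set apart, for the named genes and the within-library ratios, which made 74 groups. This picked out 1, and about 3.7 would be picked out by chance. WT library 3 held 118.1 CPM of Eif4ebp1, below a span of 122.9 to 123.7 CPM in the remaining WT libraries. Without that library the log2 fold change of Eif4ebp1 was 0.21 (edgeR FDR 0.0391).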

How the results depend on the processing

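When the Y-linked level entered as a covariate, Eif4ebp1 was at 0.207 (FDR 0.0678), so 0 of the 10 members, 0 of the other pathway genes and 0 of the genes near Nrg1 were called, and 16 genes in all. Rptor (-0.0015), Rps6kb1 (-0.00032) and Sesn2 (0.018) changed sign there. Rps6kb1 was also below 0 with upper quartile scaling (-0.0014), GC and length offsets (-0.0050) and the replicate block with those offsets (-0.0052). Without a filter there were 338 calls, 4 of them other pathway genes and 5 near Nrg1, and with DESeq2 198, 4 and 4. The cause of these shifts was not tested.

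Leaving out 1 library at a time gave 11 (without Flox library 3) to 142 calls (without Flox library 4). That gave 0 to 2 other pathway genes, with Tsc22d3 lost without Flox library 3 (FDR 0.051), and 1 to 4 genes near Nrg1, the 4 without Flox library 4. Eif4ebp1 stayed called in all 8 of these fits. The log2 fold change ranged from -0.0067 to 0.021 for Eif4ebp2, from -0.0081 to 0.020 for Rps6kb1, from -0.011 to 0.056 for Sesn1 and from -0.050 to 0.010 for Sesn2, each with some signs turned.

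The replicate numbers were not shown to pair libraries. Deviations of same-numbered libraries from their group means correlated at 0.0447 to 0.121 across genes, not all over the required 0.1, though each was above those of the 12 other pairs (-0.0877 to 0.0195). With the replicate block, Eif4ebp1 was at 0.22 (FDR 0.0165), 93 genes were called and 59 of them were among the 81 called without it. BC003965 (FDR 0.0825) and Gcnt1 (FDR 0.0577) were not called with it.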
